A study of Mus musculus with 4 samples.

Results

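The genes described here encode the DNA-dependent RNA polymerases of the cell and a set of the factors that start them. Members were the rows of the count tables whose symbol begins with Polr1, Polr2 or Polr3, together with Polrmt, Taf1a, Taf1b, Taf1c, Taf1d, Rrn3, Ubtf, Brf1, Brf2 and Bdp1. This gave 41 of 31748 rows: 8 with the digit of polymerase I, 13 with that of polymerase II, 10 with that of polymerase III and 10 other factors. All 41 passed the filter on low counts and were tested. 1 of the 8 Polr1 rows, Polr1has, is a long non-coding RNA antisense to Polr1h and encodes no subunit.

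RNA polymerase I transcribes the ribosomal RNA repeat in the nucleolus. RNA polymerase II makes messenger RNA, and RNA polymerase III makes transfer RNA and other short RNAs. Some subunits belong to 1 enzyme only, Polr1c and Polr1d serve polymerases I and III, and Polr2e, Polr2f, Polr2h, Polr2k and Polr2l serve polymerases I, II and III, so the digit in a symbol does not give every enzyme that uses the product. Polymerases I and III supply the RNA of the translation machinery, and a T cell that leaves rest and begins to grow is known to raise both.

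The 4 RNA-seq libraries carry the label of mouse spleen T cells, described as CD4+ and as bearing the TEa receptor. 2 libraries are labelled WT (genotype TEaWT) and 2 KO (genotype TEaMthfd2 KO, Mthfd2 being an enzyme of folate metabolism in mitochondria). Per the labels, the T cells were positively selected with magnetic beads (MACS) from 8-week-old mice of either genotype. Both groups then spent 3 days in coculture with antigen-presenting cells from spleens of F1 (BALB/c x C57BL/6) mice, which had been given mitomycin. The labels name no step that removed these cells afterwards. The sources used here do not say how Mthfd2 was removed, in which cells, or whether replicates are separate animals, so p-values measure a spread that may be technical. The comparison asks which transcripts differ between the libraries labelled KO and those labelled WT.

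Libraries held between 14191401 and 15955863 counts. Mthfd2 itself was present in each, at 280 and 280 CPM in the WT and 222 and 252 CPM in the KO pair (log2 fold change -0.24 ± 0.14 SE, edgeR adjusted p = 0.324), so the count over the whole gene does not check the KO label. Cd8a stood at 3.10 to 4.00 times the CPM of Cd4, against the label of CD4+ cells. The WT pair differed more than the KO pair (chi-square over degrees of freedom, 40.3 against 16.1). CPM is the edgeR measure of counts relative to the TMM-corrected library total. The log2 fold change compares KO with WT and is given with its standard error (SE, n = 2 libraries per group); every value printed with ± below is such a pair. Called means an adjusted p below 0.05 in edgeR's quasi-likelihood test.

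Most polymerase genes had lower values in KO libraries, and those that passed the test were subunits of polymerases I and III. Of 41 members, 3 fell and 0 rose: Polr3d, Polr1b and Polr1e. Over all 12752 genes tested, 3.95% were called, 1.56% lower and 2.39% higher. At an unadjusted p under 0.05, 14 members were lower and 2 higher, where 12.7% and 12.8% of all genes were. DESeq2 called 10 members lower and 0 higher, beside 6.39% of all genes called lower by it. The log2 fold change was negative in 33 of 41 members, beside 50.2% of all genes, and its median was -0.30, beside -0.0026 over all genes. Both KO libraries lay below both WT libraries in 25 members and above them in 3, beside 30.1% and 29.8% of all genes. The number of members called lower was 2 with upper quartile scaling (0.957% of all genes), 4 with library size alone (1.48%), 7 with no filter (3.72%) and 6 with a replicate block (3.14%). Leaving out WT replicate 2 raised it to 14 (8.45% of all genes). Leaving out WT replicate 1 gave 2 (0.948%) and ended the call of Polr1b (adjusted p = 0.0555). Removing either KO replicate ended every call of the test. Without KO replicate 1 the log2 fold changes of Polr3d, Polr1b and Polr1e were -1.46, -0.96 and -0.96. Without KO replicate 2 those of the same genes were -1.90, -1.70 and -1.15. In bulk RNA, fewer cells of a type and less RNA per cell cannot be told apart.

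**Figure D1:**
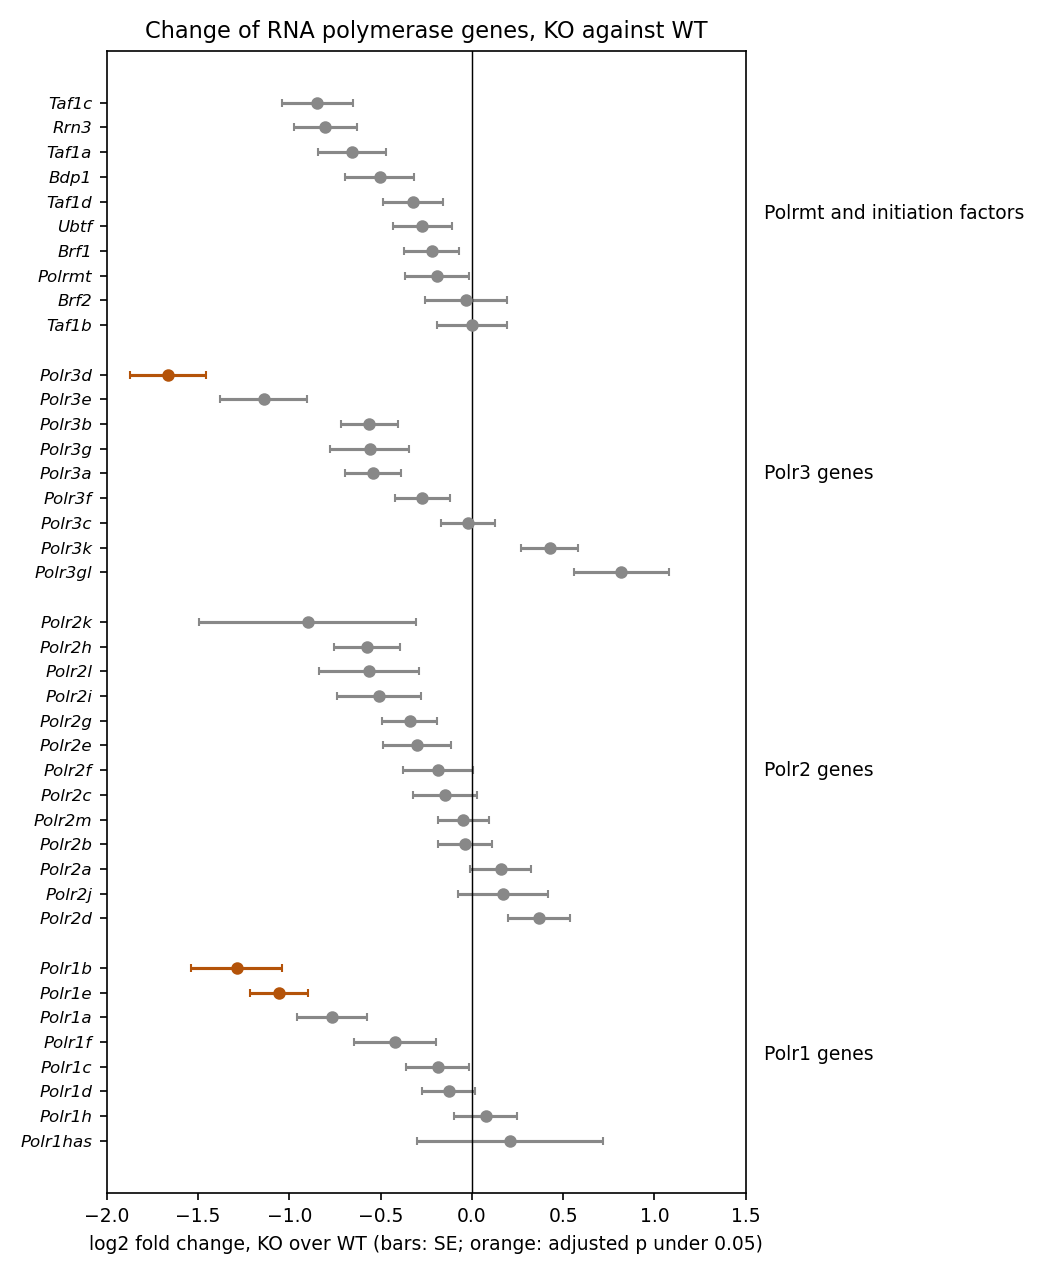
Log2 fold change of the members described here, KO over WT, with its SE (n = 2 libraries per group), grouped by the digit in the symbol. Members called at an adjusted p under 0.05 are in orange; Polr3d, Polr1b and Polr1e lie at -1.66, -1.29 and -1.06, and Polr3gl lies highest at 0.82.

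Of the 8 Polr1 rows, Polr1b and Polr1e fell and the other 6 were not called. Polr1b, the second largest subunit and part of the active site (chromosome 2, 129100970 to 129128060), had 252 and 223 CPM with the WT label and 73.0 and 122 CPM with the KO label. Both KO libraries were below both WT libraries, and KO replicate 1 was the lowest. Polr1b fell by 1.29 ± 0.25 (adjusted p = 0.0455), a 2.44-fold lower level. The call was narrow: with upper quartile scaling the adjusted p was 0.0506.

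Polr1a, which encodes the largest subunit, had 251 and 231 CPM in WT and 119 and 165 CPM in KO libraries. Its groups did not overlap, and again KO replicate 1 was lower than KO replicate 2. The difference did not pass the threshold with edgeR (-0.77 ± 0.19, adjusted p = 0.0708), while DESeq2 called it (adjusted p = 0.00746).

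Polr1e encodes PAF53, which forms with the product of Cd3eap a pair that resembles the polymerase II factor TFIIF. Polr1e (chromosome 4, 45018609 to 45034279) measured 63.5 and 62.8 CPM in WT and 28.4 and 32.3 CPM in KO libraries. Replicates of each group lay close together, and the KO level was 48.0% of the WT level. It fell by 1.06 ± 0.16 (adjusted p = 0.0357). Cd3eap, which the rule on symbols leaves out, had 61.0 and 53.6 CPM in WT and 24.5 and 48.4 CPM in KO libraries. Its KO replicates were far apart and it was not called (-0.65 ± 0.31, adjusted p = 0.236).

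The other Polr1 genes differed less. Polr1f, a subunit of the stalk that meets the initiation factor Rrn3, had 94.6 and 64.4 CPM in WT and 53.9 and 64.7 CPM in KO libraries, so the groups overlapped (-0.42 ± 0.22, adjusted p = 0.285). Polr1h, the subunit for RNA cleavage, stood at 29.7 and 29.9 CPM in WT and 33.2 and 29.7 CPM in KO libraries (log2 fold change 0.08 ± 0.17, adjusted p = 0.820). Polr1c and Polr1d, which form the platform on which polymerases I and III assemble, had log2 fold changes of -0.19 ± 0.17 and -0.13 ± 0.15. Polr1has, the antisense RNA, had between 25 and 34 counts in each library and the highest log2 fold change of the Polr1 rows (0.21 ± 0.51, adjusted p = 0.832). The median of the 5 Polr1 genes left without Polr1c, Polr1d and Polr1has was -0.77, against -0.30 for all 8.

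The windows upstream of the called polymerase I genes are shown with a search for CACGTG. This is the E-box that MYC with its partner MAX is known to bind, a motif often looked for at genes of ribosome production. Both windows are from RefSeq (GRCm38.p6), on the plus strand, and run from 250 bases before the start site to 20 after it. The motif would be in capitals. The letters CACGTG are not in either window.
Polr1b (chr2:129100746-129101015): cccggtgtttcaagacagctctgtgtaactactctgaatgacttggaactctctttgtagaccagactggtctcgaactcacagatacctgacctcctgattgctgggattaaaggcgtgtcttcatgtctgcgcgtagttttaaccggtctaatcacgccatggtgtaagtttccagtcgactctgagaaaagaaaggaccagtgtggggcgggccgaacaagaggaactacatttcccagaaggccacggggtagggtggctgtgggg
Polr1e (chr4:45018359-45018628): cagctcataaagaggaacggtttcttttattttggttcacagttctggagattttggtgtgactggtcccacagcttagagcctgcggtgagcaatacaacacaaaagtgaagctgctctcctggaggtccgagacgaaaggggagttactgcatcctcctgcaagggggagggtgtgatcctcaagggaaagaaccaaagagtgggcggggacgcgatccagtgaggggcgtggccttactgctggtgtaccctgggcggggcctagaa
The motif, which reads the same on both strands, was found in 0 of 5 Polr1 genes with an entry, in 5 of 30 members with one (16.7%) and in 11.8% of 9558 tested genes, in windows of 300 bases. The members that hold it were Polr2h, Polr3e, Polr3c, Polr3gl and Rrn3. These were 1 of 10 Polr2 genes, 3 of 7 Polr3 genes and 1 of 8 other factors with an entry. Polr3d, which was also called, had no entry and was not searched. A match is a description of the letters and not a bound site. Myc stood at 635 and 427 CPM in WT and 164 and 215 CPM in KO libraries and fell by 1.49 ± 0.24 (adjusted p = 0.0397), and its part in the levels of the polymerase genes was not tested.

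**Figure D2:**
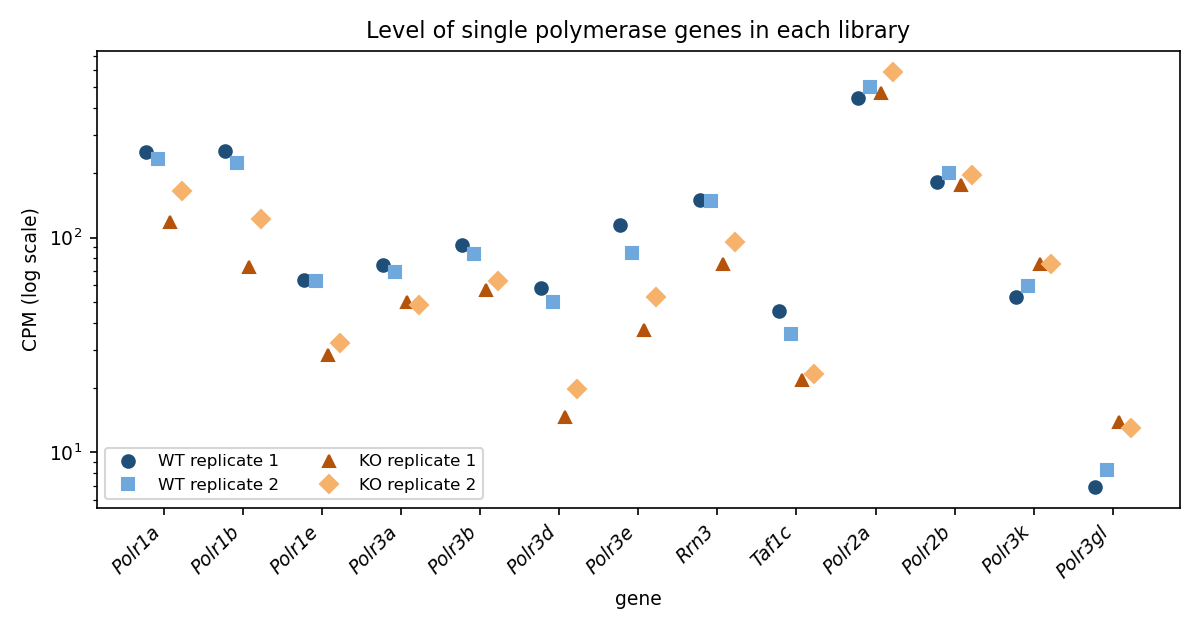
CPM of 13 polymerase genes in each of the 4 libraries (log scale), 1 point per library. For Polr1a to Taf1c both KO points lie below both WT points, Polr2a and Polr2b overlap, and for Polr3k and Polr3gl both KO points lie above.

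The factors that bring polymerase I to its promoter were not called. Rrn3 (TIF-IA), which links the polymerase to the promoter-bound factors, was nearest: it had 150 and 148 CPM in WT and 75.4 and 95.6 CPM in KO libraries. The groups were well apart, with a 1.74-fold lower level in KO (-0.80 ± 0.17), but the adjusted p of 0.0526 lay just outside the threshold and DESeq2 gave 0.00165. Its promoter window (RefSeq GRCm38.p6, plus strand, 250 bases before the start site to 20 after) is shown because it carries the E-box letters at 2 places, in capitals, beginning 215 and 48 bases upstream.
Rrn3 (chr16:13780449-13780718): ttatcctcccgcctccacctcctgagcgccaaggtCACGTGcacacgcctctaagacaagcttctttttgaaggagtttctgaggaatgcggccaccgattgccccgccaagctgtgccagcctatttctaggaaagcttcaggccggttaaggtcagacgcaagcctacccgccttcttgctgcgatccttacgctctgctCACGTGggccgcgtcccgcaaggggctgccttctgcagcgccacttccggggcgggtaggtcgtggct
Taf1a, Taf1b, Taf1c and Taf1d encode the subunits that, with the TATA-binding protein, make up the selectivity factor SL1. Taf1c stood at 45.4 and 35.6 CPM in WT and 21.8 and 23.2 CPM in KO libraries (log2 fold change -0.85 ± 0.19, adjusted p = 0.0592; DESeq2 0.0109), and Taf1a at 30.0 and 28.1 against 18.4 and 18.4 CPM (-0.66 ± 0.19, adjusted p = 0.0914). For both genes the KO libraries were below the WT libraries and close to each other. Taf1b had 31.5 and 29.4 CPM in WT and 34.1 and 26.9 CPM in KO libraries (log2 fold change 0.0023 ± 0.19, adjusted p = 0.996). The subunits of SL1 therefore did not share 1 value: the log2 fold changes ran from -0.85 to 0.0023. Taf1d (-0.32 ± 0.16, adjusted p = 0.269) and Ubtf, which encodes the rDNA-binding factor UBF (-0.27 ± 0.16, adjusted p = 0.336), lay in between. Ubtf, at 401 and 407 CPM in WT and 295 and 374 CPM in KO libraries, differed more between the KO replicates than between the WT replicates.

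Among the subunits of polymerase III, the 2 that form its TFIIF-like pair had the lowest log2 fold changes. Polr3d, which encodes RPC4 of that pair (chromosome 14, 70438748 to 70443471), measured 58.4 and 50.3 CPM in WT and 14.6 and 19.7 CPM in KO libraries. Every KO value was less than the lower WT value by far, and the KO level was 31.5% of the WT level. It fell by 1.66 ± 0.21 (adjusted p = 0.0283), the largest fold change of the 41 members. Polr3e, which encodes its partner RPC5 (chromosome 7, 120917778 to 120947435), had 114 and 84.6 CPM in WT and 37.0 and 53.0 CPM in KO libraries. The groups were apart and the level 2.20-fold lower in KO (-1.14 ± 0.24), with an adjusted p of 0.0508, just outside the threshold (DESeq2 0.000698). Without either KO library neither Polr3d (adjusted p = 0.297 without replicate 1 and 0.141 without replicate 2) nor any other gene was called.

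The promoter window of Polr3e is shown because a gene made by polymerase III overlaps its upstream end. It is from RefSeq (GRCm38.p6), plus strand, from 250 bases before the start site to 20 after, with 2 motifs in capitals: GGTTCGANTCC, the form of the internal B box of transfer RNA genes searched here on both strands, and CACGTG, which begins at base 6 of the transcript.
Polr3e (chr7:120917528-120917797): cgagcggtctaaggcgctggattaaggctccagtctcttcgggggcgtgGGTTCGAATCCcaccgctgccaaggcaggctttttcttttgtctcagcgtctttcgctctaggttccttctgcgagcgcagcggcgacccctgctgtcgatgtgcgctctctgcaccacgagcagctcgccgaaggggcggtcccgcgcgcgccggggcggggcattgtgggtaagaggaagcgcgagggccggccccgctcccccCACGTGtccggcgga
RefSeq places the leucine transfer RNA gene n-TLaag4 at chromosome 7, 120917517 to 120917598, which leaves 179 bases between its end and the start site of Polr3e. Of 9558 tested genes with a promoter entry, 4 have a transfer RNA gene overlapping the window of 300 bases (0.0419%) and 10 hold the B box letters (0.105%). Among the 30 members with an entry, Polr3e was the one with either. The transfer RNA gene itself was not analysed here.

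The catalytic subunits of polymerase III had lower values in KO libraries and were not called by edgeR. Polr3a, the largest subunit, stood at 74.6 and 69.2 CPM in WT and 50.3 and 48.6 CPM in KO libraries (log2 fold change -0.54 ± 0.15, adjusted p = 0.0906). Polr3b, the second largest, stood at 92.5 and 84.0 against 56.9 and 62.7 CPM (-0.56 ± 0.16, adjusted p = 0.0914). In both genes the groups did not overlap, and DESeq2 called them (adjusted p = 0.0447 and 0.0360). Polr3k, which encodes the small subunit used for RNA cleavage and termination, lay on the other side, at 52.7 and 59.8 CPM in WT and 75.4 and 75.7 CPM in KO libraries (log2 fold change 0.43 ± 0.16, adjusted p = 0.155). The subunits of 1 enzyme therefore did not share 1 value: the log2 fold changes of the 10 Polr3 genes ran from -1.66 to 0.82.

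The Polr3 genes of the TFIIE-like trimer, which opens the promoter, included the alternative subunits Polr3g and Polr3gl. A polymerase III enzyme holds 1 or the other, and Polr3g is known from stem cells and tumours while Polr3gl is found widely in differentiated tissue. Polr3g had 41.3 and 30.0 CPM in WT and 25.9 and 22.4 CPM in KO libraries (log2 fold change -0.56 ± 0.22, adjusted p = 0.172). Polr3gl had 6.90 and 8.31 CPM in WT and 13.9 and 12.98 CPM in KO libraries (log2 fold change 0.82 ± 0.26, adjusted p = 0.116). The KO libraries were lower for the first and higher for the second, and neither gene was called. Within a library, Polr3g made up 85.7% (95% exact binomial interval 83.0 to 88.0) of the counts of the pair in WT replicate 1 and 78.3% (74.7 to 81.6) in WT replicate 2. It made up 65.2% (61.1 to 69.1) in KO replicate 1 and 63.4% (58.9 to 67.6) in KO replicate 2. The intervals, which cover counting error only, of both KO libraries lay below those of both WT libraries. The log2 ratio of the pair differed by -1.37 (SD 0.52 in WT, 0.081 in KO), and the exact two-sided permutation p was 0.333, the smallest that 2 against 2 libraries can give. The other genes of the trimer, Polr3c (-0.02 ± 0.15) and Polr3f (-0.27 ± 0.15), were not called (adjusted p = 0.943 and 0.300).

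**Figure D3:**
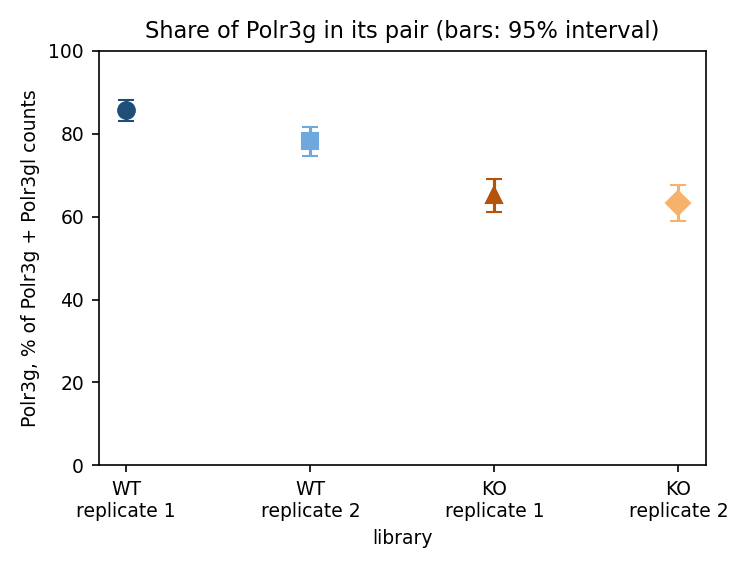
Share of Polr3g in the counts of Polr3g plus Polr3gl in each library, in percent from 0 to 100, with exact 95% binomial intervals. The WT libraries lie at 85.7% and 78.3%, and the KO libraries at 65.2% and 63.4%.

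The TFIIIB factors that place polymerase III on its genes were not called. Bdp1, a part of every form of TFIIIB, had 151 and 112 CPM in WT and 89.2 and 96.0 CPM in KO libraries (log2 fold change -0.50 ± 0.19, adjusted p = 0.161). WT replicate 1 was the highest, and without it the value was -0.27, while without WT replicate 2 Bdp1 was called (log2 fold change -0.70). Brf1, the form used at transfer RNA genes, stood at 61.9 and 58.8 against 53.5 and 50.3 CPM (-0.22 ± 0.15, adjusted p = 0.404). Brf2, the form used at genes such as that of U6 RNA, stood at 16.0 and 19.3 against 16.3 and 18.3 CPM (-0.03 ± 0.22, adjusted p = 0.948), with overlapping groups.

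None of the 13 Polr2 genes was called by edgeR or DESeq2, where edgeR called 3.95% of all genes. At an unadjusted p under 0.05 in edgeR, 1 was lower and 0 higher, beside 12.7% and 12.8% of all genes. The largest subunit Polr2a, whose tail of repeats coordinates RNA processing, stood at 448 and 504 CPM in WT and 470 and 592 CPM in KO libraries (log2 fold change 0.16 ± 0.17, adjusted p = 0.596). The second largest, Polr2b, stood at 181 and 200 against 175 and 196 CPM (-0.04 ± 0.15, adjusted p = 0.909). In both the groups overlapped. Polr2d, a stalk subunit on chromosome 18, was the highest of the class with 47.4 and 58.1 CPM in WT and 65.7 and 70.6 CPM in KO libraries (log2 fold change 0.37 ± 0.17, adjusted p = 0.230), while its stalk partner Polr2g had -0.34 ± 0.15 (adjusted p = 0.217). Polr2i, for RNA cleavage and fidelity, had -0.51 ± 0.23 (adjusted p = 0.221). Polr2c and Polr2j, which form the assembly platform of the enzyme, had -0.15 ± 0.17 and 0.17 ± 0.25. Polr2m encodes Gdown1, an associated factor and not a core subunit, and had -0.05 ± 0.14. Over the 8 Polr2 genes that are not shared, log2 fold changes ran from -0.51 to 0.37 with a median of -0.04.

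The 5 subunits common to the 3 enzymes were all on the negative side, from -0.90 to -0.18 with a median of -0.56, and none was called. Polr2h had 50.5 and 40.0 CPM in WT and 31.7 and 29.1 CPM in KO libraries (log2 fold change -0.57 ± 0.18, adjusted p = 0.116), and was called without WT replicate 2 (-0.73, adjusted p = 0.0298). Polr2l had 12.8 and 14.5 against 7.78 and 10.7 CPM (-0.56 ± 0.27, adjusted p = 0.249). Polr2e and Polr2f, the more abundant ones, had -0.30 ± 0.19 and -0.18 ± 0.19. The groups of Polr2h, Polr2l, Polr2e and Polr2k were apart, with KO below WT as in 30.1% of all genes, and those of Polr2f overlapped. Polr2k was the lowest, at 41 and 20 counts among WT against 15 and 14 among KO libraries (-0.90 ± 0.59, adjusted p = 0.383), and at this depth its difference was not detectable.

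Set side by side by the digit, the classes had medians of -0.30 (Polr1, 2 of 8 called lower), -0.18 (Polr2, 0 of 13) and -0.55 (Polr3, 1 of 10). The share of all genes called lower was 1.56%. The remaining 10 factors had a median of -0.30 and 0 calls, with 2 lower by DESeq2 (6.39% of all genes). At an unadjusted p under 0.05 in edgeR, 3 Polr1, 1 Polr2, 6 Polr3 and 4 other genes were lower. The 2 members higher at that threshold were both Polr3 genes. The shares over all genes were 12.7% lower and 12.8% higher. Without WT replicate 1 the median of the Polr1 genes was -0.12 and without WT replicate 2 it was -0.49, so the place of WT replicate 1 weighed on it. Without KO replicate 2 the median of the Polr2 genes was -0.33, and without KO replicate 1 it was -0.09. The medians of the Polr3 genes kept between -0.61 and -0.39 over all alternatives. On the scale of log2 CPM less the mean of a gene over the 4 libraries, the median of the Polr3 genes lay at 0.34 and 0.16 in WT and -0.21 and -0.25 in KO libraries. That of the Polr2 genes lay at 0.09 and 0.12 in WT and -0.16 and 0.04 in KO libraries, so KO replicate 2 was near the WT libraries. For the Polr1 genes it lay at 0.34 and 0.10 in WT and -0.26 and -0.06 in KO libraries. KO replicate 2 was the nearer to WT there too. Differences between the class medians were not tested.

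**Figure D4:**
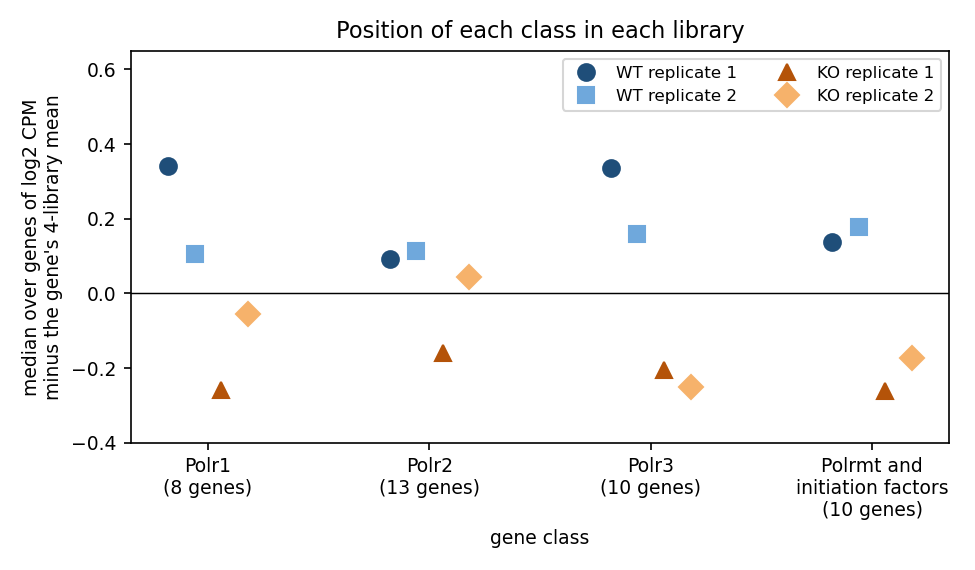
Median over the genes of a class of log2 CPM minus the 4-library mean of each gene, 1 point per library. The Polr3 points of WT (0.34 and 0.16) lie above those of KO (-0.21 and -0.25), and the Polr2 points lie between -0.16 and 0.12.

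Ratios of catalytic subunits within a library do not depend on the scaling of libraries. The counts of Polr1a per count of Polr2a were 0.559 and 0.458 in WT and 0.252 and 0.278 in KO libraries. Those of Polr1b per Polr2b were 1.40 and 1.12 in WT and 0.417 and 0.621 in KO libraries. For polymerase III, Polr3a per Polr2a gave 0.166 and 0.137 against 0.107 and 0.0820, and Polr3b per Polr2b gave 0.512 and 0.421 against 0.325 and 0.321. In all 4 ratios both KO libraries were below both WT libraries, with log2 differences of -0.93, -1.30, -0.69 and -0.52. The exact two-sided permutation p was 0.333 for each of the 5 ratios computed, that of Polr3g to Polr3gl included, before and after Benjamini-Hochberg adjustment, which is the smallest this design allows.

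Levels were compared between genes per kb of exon, using GENCODE exon lengths. These may differ from the annotation the authors counted on. In WT libraries Polr2e stood at 120 CPM per kb, Polr2f at 92.3, the associated factor Polr2m at 86.3 and the catalytic Polr2a at 70.6. Polr1b stood at 51.3 and Polr1a at 26.1 CPM per kb in WT libraries. Polr3b and Polr3a, at 17.7 and 15.3 CPM per kb, were lower still. In KO libraries the same scale gave 78.8 for Polr2a, 21.0 for Polr1b, 15.4 for Polr1a and 10.5 for Polr3a. Polr1b, at 54.4 and 48.1 in WT libraries, lay near Polr2b (43.5 and 48.2), and the 2 did not differ beyond their spread. In KO libraries Polr1b, at 15.8 and 26.2, lay below Polr2b (42.3 and 47.2) in both. Polr3g and Polr3gl stood at 10.4 and 5.33 CPM per kb in WT and at 7.08 and 9.40 in KO libraries. On this scale Polr3g was the higher of the pair in both WT libraries and the lower in both KO libraries. By counts alone Polr3g was the larger part of the pair in KO libraries too (65.2% and 63.4%). The order in KO libraries therefore rests on the exon lengths used, 3419 bases for Polr3g and 1427 for Polr3gl.

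**Figure D5:**
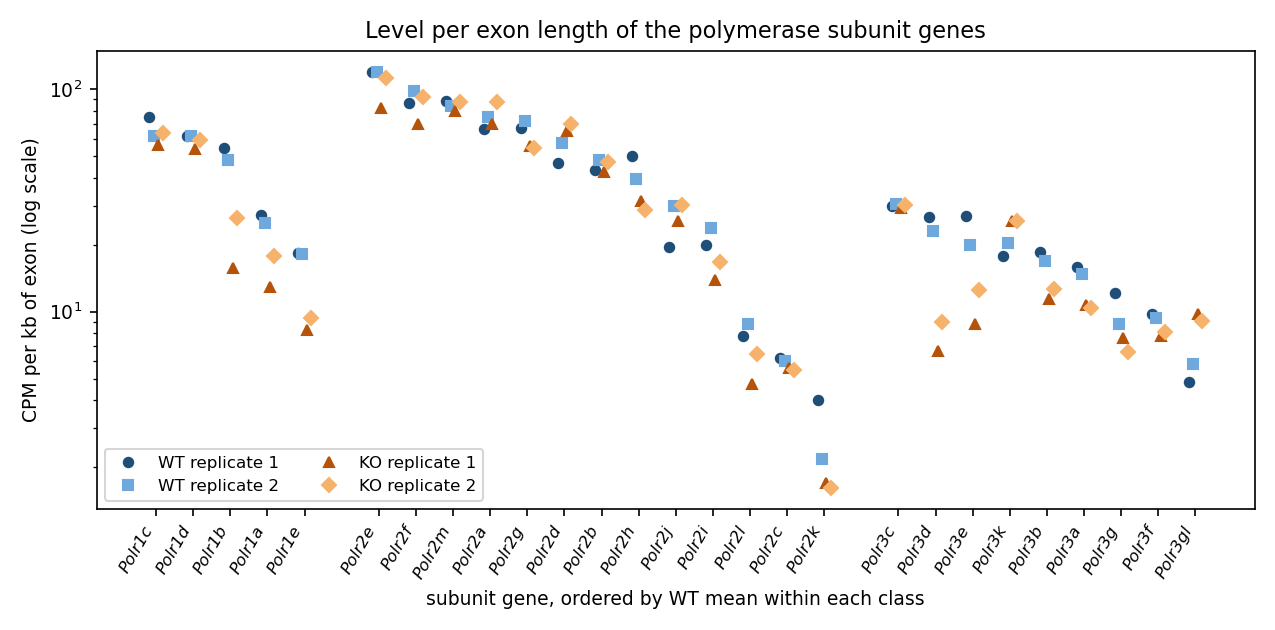
CPM per kb of exon (log scale) of the Polr1, Polr2 and Polr3 genes described here that have a GENCODE length, 1 point per library, ordered by the WT mean within Polr1, Polr2 and Polr3. Polr1b lies near 51.3 in WT and 21.0 in KO libraries, while Polr2a lies at 70.6 and 78.8.

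Polrmt, the single-subunit enzyme that transcribes mitochondrial DNA, had 68.4 and 79.6 CPM in WT and 59.0 and 70.4 CPM in KO libraries. The groups overlapped and it was not called (-0.19 ± 0.18, adjusted p = 0.529). Of 12 further genes of mitochondrial transcription and DNA upkeep, 0 were called by edgeR, with a median of -0.15. At an unadjusted p under 0.05, 3 were lower and 0 higher, beside 12.7% and 12.8% of all genes. Twnk, the mitochondrial helicase, was the nearest (-0.65 ± 0.18, adjusted p = 0.0832).

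The lists of other genes around the polymerases gave 1 call. Over all genes tested, 12.7% were lower and 12.8% higher at an unadjusted p under 0.05 in edgeR. Of 9 further genes of polymerase I activity, Myc fell and 0 rose, with a median of -0.54. At an unadjusted p under 0.05, 4 were lower and 2 higher. The 2 higher were Ttf1 (0.49 ± 0.16, adjusted p = 0.123) and Baz2a (0.40 ± 0.15, adjusted p = 0.156). The nucleolar helicase Ddx21 and the nucleolar protein Nolc1 had -0.87 ± 0.21 and -0.84 ± 0.22 (adjusted p = 0.0635 and 0.0819). Of 29 general and elongation factors of polymerase II, 0 were called, with 5 lower and 0 higher at an unadjusted p under 0.05. Their median was -0.15. Gtf2f2, a subunit of TFIIF itself, was the nearest at -0.66 ± 0.15 (adjusted p = 0.0608). Of 10 assembly factors of polymerase II, 0 were called (median -0.19, 3 lower and 0 higher at an unadjusted p under 0.05). Among them Gpn1, a GTPase for its nuclear import, had -0.70 ± 0.16 (adjusted p = 0.0610). Of 16 further genes of polymerase III, 0 were called (median -0.13, 2 lower and 0 higher at an unadjusted p under 0.05). They included Maf1, the repressor of polymerase III, with 82.0 and 49.9 CPM in WT and 75.7 and 67.5 CPM in KO libraries (log2 fold change 0.12 ± 0.25, adjusted p = 0.807). The subunits of TFIIIC, which recognises transfer RNA genes, ran from Gtf3c6 at -0.43 ± 0.18 to Gtf3c1 at 0.24 ± 0.17.

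Most tested markers of other cells had lower values in KO libraries. All 10 B cell markers had a negative log2 fold change and 4 fell (median -1.25). Their summed level was 1399 and 868 CPM in WT and 511 and 455 CPM in KO libraries. Of 10 MHC class II genes, 7 fell (median -1.37), with sums of 4167 and 2485 CPM in WT and 1317 and 1148 CPM in KO libraries. Of 10 myeloid markers, 5 passed the filter, Mpeg1 fell, and sums were 170 and 70.8 against 35.1 and 29.1 CPM, with Fcgr1 at 0 in all 4 libraries. Mpeg1 made up most of every myeloid sum: 154 and 61.0 CPM (WT), 25.9 and 21.0 CPM (KO). The myeloid sum is thus largely the level of 1 gene. The other tested myeloid markers were not called: Lyz2 (-3.42 ± 0.79), Adgre1 (-1.14 ± 1.19), Cd68 (-0.24 ± 0.33) and Itgax (0.45 ± 0.54). Of 6 plasma cell markers, Jchain, Mzb1 and Irf4 (which activated T cells also express) fell, with sums of 1278 and 981 against 432 and 548 CPM and Tnfrsf17 at 0 in 3 libraries. Most of each plasma cell sum was Irf4, at 1141 and 910 CPM in WT and 372 and 502 CPM in KO. That sum is therefore not a level of plasma cells. Prdm1 (0.36 ± 0.22) and Sdc1 (0.07 ± 0.52) lay on the other side and were not called. Of 5 red cell genes found, Hba-a2 and Alas2 fell, with list sums of 127 and 32.3 CPM (WT) and of 6.86 and 3.08 CPM (KO). Of 8 T cell markers, 3 rose (Cd3d, Cd3e and Cd3g) and the median was 0.58. Their sums were 1743 and 1830 CPM in WT and 2502 and 2601 CPM in KO libraries. Cd5 was the 1 T cell marker with a negative log2 fold change (-0.09 ± 0.15). WT replicate 1 held the most RNA of B cells and MHC class II genes, and the part of other cells in the levels of polymerase genes was not tested. Without that library, the B cell sums left were 868 CPM (WT) and 511 and 455 CPM (KO), Polr1e and Polr3d were called, and Polr1b was not (-1.19, adjusted p = 0.0555).

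Some members share sequence or place with another gene, and their counts are less certain since the use of strand is not given in the sources used here. By GENCODE exons, an opposite-strand gene covers 26.8% of the exon bases of Polr2i, 18.1% of Polr2c, 16.7% of Taf1c and 15.9% of Polr2j. Taf1d has snoRNA genes within annotated exons and has a processed pseudogene (Gm13487) 95.5% identical over 863 bases. Polr2k shares 303 bases at 96.0% identity with Gm46136. The 3 called genes had no annotated exon on the other strand and no copy of 90% identity over at least 50% of the transcript. Polr1has is named as antisense to Polr1h, and whether the counting separated their reads is not known here. Polr1f, Polr1h and Polr1has were not matched in the RefSeq table, so no position or length is given for them.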

How the data were processed

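Per the submitters' processing notes, the authors used Subread 2.0.1 with featureCounts, the mm10 build, R 4.0.4 and DESeq2 1.30.1. The role of each tool, the annotation release and the strand setting are not stated there. The deposited values are whole-number read counts per gene symbol, 1 table per library and not normalized. Per the labels' protocols, total RNA was DNase-treated and depleted of ribosomal RNA.

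The test used edgeR 4.0.16 in R 4.3.3, with filterByExpr (minimum count 10, minimum total count 15), TMM factors and the quasi-likelihood test of KO against WT on all 4 libraries without covariate, with Benjamini-Hochberg adjustment over 12752 genes. Alternatives were DESeq2 1.42.0, other scalings, no filter, a replicate block and each library left out. Replicate numbers are shared by the groups but nothing says that they pair the libraries.

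Members and lists were chosen with earlier results of these data known, so no test over a list was made. All 41 members enter the counts and medians, and 1 of them is not reported here by itself. Named with values were the called members, the 2 largest subunits of each enzyme, Polrmt, Polr3g and Polr3gl, the initiation factors, and the extremes of each class. Others, and the windows of Polr3e and Rrn3 (not called), were named after their values were seen, as was the B box search. Protein sequences are not used here. Promoter entries were matched for 30 of 41 members. Exon lengths and gene identifiers are from GENCODE M21 (GRCm38), other coordinates from RefSeq GRCm38.p6, counted from 1. Copies were searched with BLAST 2.17.0.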

Additional observations from a re-analysis of the deposited data

How the results depend on the processing

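The 3 calls among the polymerase genes are few and narrow, with n = 2 per group. DESeq2 called 783 genes lower and 860 higher, 10 of them members, all lower. Upper quartile scaling gave 122 lower genes in all and lost the call of Polr1b (adjusted p = 0.0506). With no filter on low counts 682 were lower and 737 higher, with 7 members lower. Same-numbered libraries did not deviate together (correlation 0.040 over 12752 genes), and with the replicate block 401 genes were lower and 488 higher, with 6 members lower. DESeq2, the fit with no filter and the replicate block kept Polr3d, Polr1b and Polr1e among their calls. Leaving out 1 library gave between 0 and 1127 lower and between 0 and 1432 higher genes, and between 0 and 14 members lower. The 0 came from the fits with a single KO library, where the spread rests on the WT pair alone. Class medians then ran from -0.49 to -0.12 (Polr1), -0.33 to -0.087 (Polr2) and -0.61 to -0.39 (Polr3). Of the values of single members under an alternative, 335 kept their side of the threshold, 26 passed it newly and 8 no longer did. No called value changed sign. Polr2k and Polr1has, with the fewest counts, are limited by depth.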

Other observations

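The rows of some RNAs that polymerase III makes were looked up. The rows of Rmrp, Rpph1, Rny1 and Rny3, which are short products of this enzyme, held at most 4 counts in a library, Bc1 reached at most 8 counts, and the 12 rows of the small ribosomal RNA it transcribes held at most 11. None of the transfer RNA symbols of the RefSeq table had a row. Other products of the enzyme were not looked up. These rows were chosen after the results on the subunits were seen.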
